A study of Homo sapiens with 6 samples.

Results

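Open chromatin sites far from gene ends were examined in the most gene-dense parts of the genome of H1 human embryonic stem cells. A summit, the position of strongest ATAC-seq signal in a called peak, was a member if at least 30 midpoints of protein-coding genes lay within 500 kb of it and if it was over 2000 bp from both ends of every protein-coding gene. Of 356720 summits in 6 libraries, 11221 were members. Summits within 250 bp of each other were joined into loci, and 3594 of 123131 loci were members. The rule uses the position of a site only and not its signal.

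All cells were of the H1 line, grown in mTeSR1 medium on Matrigel, infected with a virus carrying a short hairpin RNA (shRNA) and selected with puromycin. The 3 groups were shHNRNPU #1 and shHNRNPU #2, which are different hairpins against HNRNPU, and shLUC, the control hairpin, with 2 libraries each. The puromycin selection and the virus were shared by all groups, so the shLUC libraries carry them too. The deposited lists hold positions and scores but no reads, so read depth cannot be given and HNRNPU levels are not seen in them. The lists held 52168 to 63519 summits, and POU5F1, SOX2 and NANOG, which define pluripotent cells, each had at least 1 summit within 2000 bp of a gene end in all 6 libraries.

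HNRNPU, also known as scaffold attachment factor A, is an abundant nuclear RNA-binding protein that associates with nascent transcripts and with the nuclear matrix. Gene-dense chromatin is generally early replicating, GC-rich and located toward the interior of the nucleus. Open sites away from gene ends are commonly enhancers, CTCF-bound insulators or promoters of non-coding transcripts and of alternative starts inside genes, and ATAC-seq does not tell these apart.

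Some members coincide with an annotated start in spite of the distance rule, because the start is that of a non-coding RNA or lies inside a longer gene. A RefSeq promoter window, from 250 bases before to 50 after a start, held 188 members (5.23%), of which 123 lay at starts of protein-coding genes and 65 only at starts of long non-coding RNAs (lncRNAs). Some of these windows are printed here. The first 3 are all of those with a member gained with shHNRNPU, meaning a summit in all 4 shHNRNPU libraries and in neither shLUC library. Sequences are from RefSeq on GRCh38.p14, each 5′ to 3′ on the strand of its gene, with capitals for the 21 bases centred on the locus. They are LINC02724 (chr11:64448807-64449106, plus strand), FGF11 (chr17:7440518-7440817, plus strand) and MATK (chr19:3786051-3786350, minus strand).
LINC02724: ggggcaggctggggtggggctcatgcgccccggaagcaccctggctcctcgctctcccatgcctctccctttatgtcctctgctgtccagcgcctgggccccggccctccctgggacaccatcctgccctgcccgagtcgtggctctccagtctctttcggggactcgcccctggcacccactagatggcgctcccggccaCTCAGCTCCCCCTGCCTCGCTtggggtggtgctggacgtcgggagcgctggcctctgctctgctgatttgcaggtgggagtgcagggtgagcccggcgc
FGF11: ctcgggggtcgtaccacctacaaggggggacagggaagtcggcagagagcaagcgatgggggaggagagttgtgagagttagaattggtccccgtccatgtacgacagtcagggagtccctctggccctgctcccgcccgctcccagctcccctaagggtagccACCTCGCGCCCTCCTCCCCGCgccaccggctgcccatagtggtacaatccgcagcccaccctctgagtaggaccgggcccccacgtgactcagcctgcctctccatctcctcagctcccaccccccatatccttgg
MATK: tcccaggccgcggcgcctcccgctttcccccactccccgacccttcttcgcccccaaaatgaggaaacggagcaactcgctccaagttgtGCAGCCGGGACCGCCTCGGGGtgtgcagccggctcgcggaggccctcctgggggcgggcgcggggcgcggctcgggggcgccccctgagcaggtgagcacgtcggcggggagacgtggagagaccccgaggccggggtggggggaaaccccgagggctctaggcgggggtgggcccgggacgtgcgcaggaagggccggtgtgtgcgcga

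The other 3 windows hold members that were strong in every library. They are the promoter windows among the 6 members of highest lowest score percentile over all 6 libraries, namely MALAT1 (chr11:65497488-65497787, plus strand), NEMP1 (chr12:57078742-57079041, minus strand) and MYADM (chr19:53867633-53867932, plus strand).
MALAT1: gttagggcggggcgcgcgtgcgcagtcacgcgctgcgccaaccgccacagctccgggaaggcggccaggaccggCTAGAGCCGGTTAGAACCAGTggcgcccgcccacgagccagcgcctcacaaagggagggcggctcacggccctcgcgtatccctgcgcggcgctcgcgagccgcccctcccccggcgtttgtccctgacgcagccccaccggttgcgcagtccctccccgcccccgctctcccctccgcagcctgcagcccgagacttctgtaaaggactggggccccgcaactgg
NEMP1: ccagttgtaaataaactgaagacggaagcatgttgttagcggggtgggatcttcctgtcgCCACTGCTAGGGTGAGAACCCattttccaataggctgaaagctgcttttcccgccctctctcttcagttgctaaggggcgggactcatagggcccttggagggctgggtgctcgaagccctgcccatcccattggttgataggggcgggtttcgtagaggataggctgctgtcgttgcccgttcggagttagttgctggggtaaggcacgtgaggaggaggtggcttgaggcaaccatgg
MYADM: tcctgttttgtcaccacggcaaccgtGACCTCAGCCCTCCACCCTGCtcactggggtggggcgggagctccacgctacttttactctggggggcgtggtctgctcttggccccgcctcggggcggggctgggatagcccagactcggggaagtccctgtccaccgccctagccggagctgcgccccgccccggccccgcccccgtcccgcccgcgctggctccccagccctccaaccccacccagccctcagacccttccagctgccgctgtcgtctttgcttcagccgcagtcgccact

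The centres of the 6 loci lay upstream of these starts, 39 bases before the start of LINC02724, 76 before that of FGF11, 150 before that of MATK, 166 before that of MALAT1, 180 before that of NEMP1 and 214 before that of MYADM. Their GC content ran from 56.3% for NEMP1 to 75% for MATK. The 207 promoter windows that held a member had a median GC content of 66.7%, against 58.7% over all 35116 windows. The GC box GGGCGG, searched on both strands (CCGCCC on the printed strand is the same motif), was found in 70.5% of the windows with a member and in 45.0% of all windows. It occurred 5 times at MALAT1, 6 times at MYADM, 3 times at NEMP1, once at FGF11, once at MATK and not at LINC02724. A match of these letters is a description of the sequence and does not show that a factor was bound. All windows include those without a summit and those in gene-poor regions. Other open promoter windows were not compared, so the higher GC content and GC box share are not shown to be particular to members.

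Members at promoter windows were shared by more libraries than members as a whole. Of the 188, 107 (56.9%) had a summit in all 6 libraries, against 23.3% of all members. None of the 124 that were in both shLUC libraries was lost with shHNRNPU, a lost locus being one with no summit in any of the 4 shHNRNPU libraries, against 5.68% of all loci. Loci at gene ends in gene-dense windows are a closer comparison and lost 1.65%, so the lack of losses was near that share. Of the 119 in all 4 shHNRNPU libraries, 3 were gained, against 3.59% of all loci, a share near that background. At LINC02724 and MATK a shLUC summit lay 663 and 498 bp from the centre, and at FGF11 the nearest was 3477 bp away. The FGF11 call rests on a shHNRNPU #1 repeat 2 summit 249 bp from the centre, just inside the match distance.

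Members were compared with the genome around them before the groups were compared. The windows that meet the rule cover 66.8 Mb, 2.19% of the territory, and held 53.8 loci per Mb, against 33.0 loci per Mb in the distal territory elsewhere. For loci present in all 6 libraries the densities were 12.5 and 5.02 per Mb. Distal territory in gene-dense windows thus held more open sites per base than other distal territory. Starts of protein-coding transcripts that lie inside a gene are not removed by the distance rule and were counted apart. Such a start within 2000 bp was found for 295 of the 3497 members off chromosome 8 (8.44%), against 3.38% of distal loci elsewhere, since the table of starts has no entry on chromosome 8.

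The neighbourhood of a member held a median of 36 protein-coding genes within 500 kb and at most 75. The median distance to the nearest gene end was 8358 bp, against 46069 bp for distal loci elsewhere, and 43.0% of members were over 10 kb from an end, against 83.9%. Of the members, 2118 (58.9%) lay inside the body of a protein-coding gene, against 47.2% elsewhere. An end of a lncRNA gene lay within 2000 bp of 441 members (12.3%), against 8.04%.

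Chromosome 19, the most gene-dense human chromosome, held 1026 members (28.5%). It was followed by chromosome 11 with 406, chromosome 17 with 341, chromosome 1 with 291 and chromosome 16 with 287. Of the 6 intervals of 1 Mb with the most members, 4 were on chromosome 19, at 45 to 46 Mb with 70 members, at 1 to 2 Mb and at 18 to 19 Mb with 65 each, and at 48 to 49 Mb with 61. The others were chromosome 11 at 64 to 65 Mb with 59 members and chromosome 1 at 156 to 157 Mb with 57.

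The first question was whether members made up a different share of open sites with shHNRNPU. The libraries had 1987 and 2136 members with shHNRNPU #1, 1812 and 1747 with shHNRNPU #2, and 1745 and 1794 with shLUC. Members were 3.36% of all summits in both shHNRNPU #1 libraries, 3.10% and 3.35% in the shHNRNPU #2 libraries, and 2.81% and 2.92% in the shLUC libraries. All 4 shHNRNPU libraries were above both controls, although the shHNRNPU #2 repeat 1 library was close to them. The shHNRNPU mean was 3.29% ± 0.129 (SD, n = 4), against 2.86% ± 0.0829 (SD, n = 2) for shLUC. The difference was 0.430 percentage points or 1.15-fold (exact permutation over the 15 choices of control pair, two-sided, p = 0.133). With 4 libraries against 2, 0.133 is the smallest p this design allows, so no comparison of this kind could pass 0.05. The labels do not say that repeats came from separate cultures, so these p-values measure only the spread between the libraries.

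The same was found within distal summits, where a shift of summits toward gene ends does not enter. Distal summits were a mean of 71.6% of a list with shHNRNPU and 73.7% with shLUC, so such a shift was present. Members were 4.70% and 4.59% of distal summits with shHNRNPU #1, 4.31% and 4.83% with shHNRNPU #2, and 3.80% and 3.98% with shLUC. The groups did not overlap. The means were 4.61% ± 0.222 (SD, n = 4) and 3.89% ± 0.133 (SD, n = 2), a difference of 0.716 points or 1.18-fold (two-sided exact permutation test, p = 0.133). The difference was 0.752 points for shHNRNPU #1 and 0.679 points for shHNRNPU #2, where 2 libraries against 2 cannot give a p below 0.333 (p = 0.333 for both hairpins, exact permutation test).

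List length was then equalised by keeping the 52168 best-scored summits of each library. Members were then 4.76% and 4.89% of distal summits with shHNRNPU #1, 4.51% and 4.83% with shHNRNPU #2, and 4.09% and 4.31% with shLUC. The groups again did not overlap, and the gap narrowed to 0.549 points or 1.13-fold (two-sided exact permutation test, p = 0.133). As a share of all summits the gap was 0.340 points, and the mean number of members was 1727 ± 55.0 (SD, n = 4), against 1549 ± 49.5 (SD, n = 2) for shLUC.

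**Figure D1:**
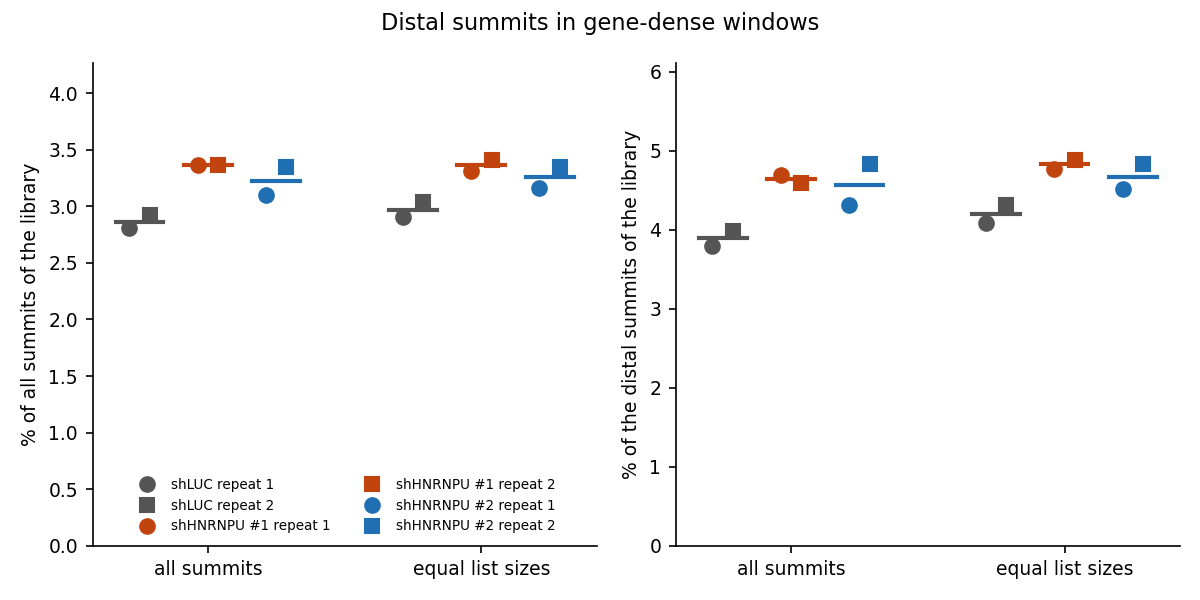
Members as a percentage of all summits (left) and of distal summits (right) of each library, with all deposited summits and with equal list sizes. Points are libraries and bars are the means of the 2 libraries of a hairpin; the shHNRNPU points sit at 3.10% to 3.36% of all summits and the shLUC points at 2.81% and 2.92%.

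Chromosome 19 carried 40.6% of the difference in the share of distal summits. Its members were 1.43% and 1.41% of distal summits with shHNRNPU #1, 1.29% and 1.50% with shHNRNPU #2, and 1.08% and 1.15% with shLUC. The difference was not limited to it. On 14 of the 20 chromosomes with members all 4 shHNRNPU libraries were above both shLUC libraries in this share, and on none were all 4 below. The chromosomes share the same libraries and the same totals of distal summits, so they are not independent. No such count stands beside it for distal summits elsewhere. With chromosome 19 left out, an alternative chosen after seeing the data, the difference was 0.453 points (two-sided exact permutation test, p = 0.133).

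Members were also counted as a share of the open sites of their own windows, where gene ends are the other sites. Members were 42.0% and 42.9% of the summits in gene-dense windows with shHNRNPU #1, 40.9% and 40.2% with shHNRNPU #2, and 40.4% and 40.6% with shLUC. The difference of 1.02 points was within the spread of the shHNRNPU libraries (p = 0.4, two-sided exact permutation test). With equal list sizes it was 1.38 points, with all 4 shHNRNPU libraries above both controls (p = 0.133, exact permutation test).

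The share of distal summits was higher with shHNRNPU in each class of local gene number above the lowest. Positions with 0 to 9 genes within 500 kb held 68.3% ± 1.23 (SD, n = 4) of distal summits with shHNRNPU, against 72.0% ± 0.664 (SD, n = 2) for shLUC, a difference of -3.71 points. The differences were 1.97 points for 10 to 19 genes, 1.02 for 20 to 29, 0.493 for 30 to 39 and 0.223 for 40 or more. As ratios these were 0.948, 1.11, 1.19, 1.19 and 1.17. No class showed an overlap of the groups (p = 0.133 in all 5, unadjusted, by exact permutation, two-sided). The 5 classes together make up all distal summits of a library. A lower share in the lowest class therefore requires higher shares in the others, and the 5 results are not independent. The ratio was thus about the same from 20 genes upward, and the threshold of 30 genes did not mark a step. With equal list sizes the ratios were 0.961, 1.07, 1.13, 1.13 and 1.12.

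**Figure D2:**
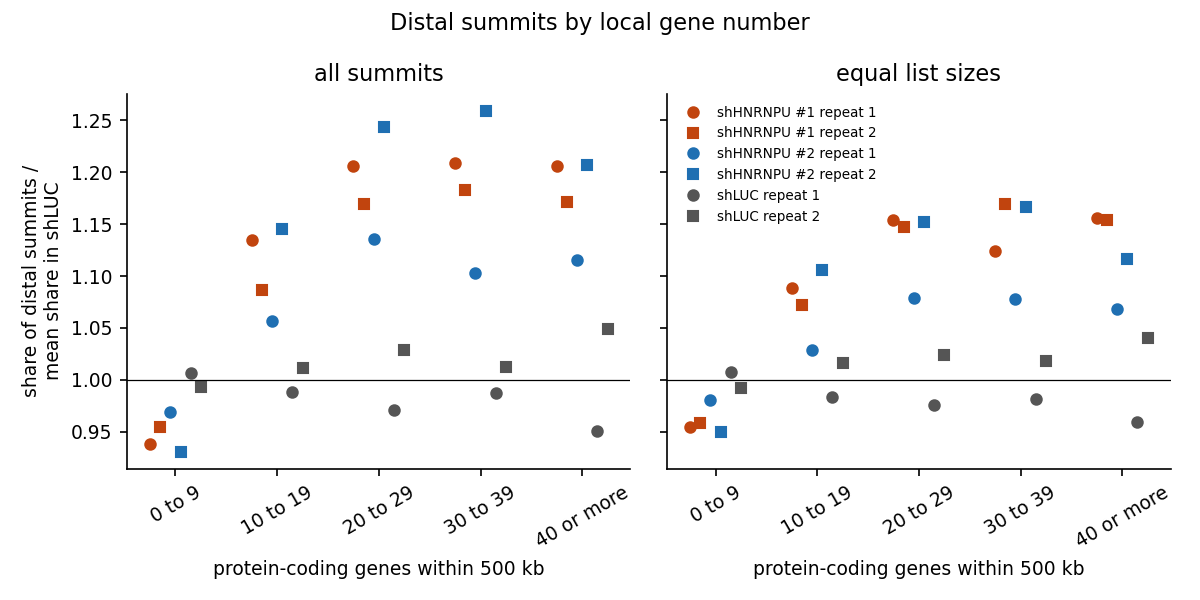
Share of distal summits in 5 classes of local gene number, each library divided by the mean of the shLUC libraries, with all summits (left) and equal list sizes (right). Points are libraries and the line marks a ratio of 1; in the lowest class all 4 shHNRNPU libraries are under both controls, and in the other classes all 4 are over them.

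Spacing and position of members were compared next. The median distance from a member to the nearest other summit of its library was 6903, 6735, 7462 and 7173 bp with shHNRNPU, and 7469 and 7628 bp with shLUC. All 4 shHNRNPU values were below both controls (mean difference -480 bp, two-sided exact permutation test, p = 0.133). Distal summits elsewhere showed the same order, with 13693, 13116.5, 14883 and 15022 bp with shHNRNPU and 15266 and 15368.5 bp with shLUC. The closer spacing is therefore not particular to members. Members within 2000 bp of a start inside a gene were 10.0% ± 0.197 (SD, n = 4) of members with shHNRNPU, against 10.3% ± 0.0132 (SD, n = 2) for shLUC, so the higher share of members did not come with a higher proportion at such starts. The median gene number around members was 36 in every library.

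The groups were compared by the percentile of the score among all summits of the library, since scores were not normalised between libraries. Raw scores of single loci are given further below as descriptions. The median percentile of members was 48.3 and 49.0 with shHNRNPU #1, 52.0 and 48.6 with shHNRNPU #2, and 50.4 and 51.9 with shLUC. The groups overlapped, and the difference of -1.64 percentile points was not larger than their spread (two-sided exact permutation test, p = 0.4). Members thus ranked near the middle of each list. Distal summits elsewhere had a mean median of 41.2 with shHNRNPU and 42.3 with shLUC, and gene ends in gene-dense windows 74.6 and 72.2. The deposited score itself, the −log10 of a q-value, had a median of 7.12 to 8.12 over members and ranged up to 97.0.

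Loss and gain were then counted over loci. Of the 1251 members in both shLUC libraries, 40 (3.20%) were lost, against 5.68% of all loci, and of the 1033 members in all 4 shHNRNPU libraries, 44 (4.26%) were gained, against 3.59% of all loci. Distal loci elsewhere lost 7.70% and gained 4.53%, and gene ends in gene-dense windows lost 1.65% and gained 2.52%. The share of members lost was therefore between those of the other distal loci and of gene ends, and the gained share was close to the background. With equal list sizes 27 members were lost and 46 gained, in place of 40 and 44, so the lost count depended on list length. The shares over all loci were not counted at this setting. All these counts are descriptions, since a test on loci would treat sites of the same libraries as replicates.

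The lost share among distal loci went down from class to class of local gene number, and the gained share did not follow it. Lost loci were 8.87% of those in both shLUC libraries for 0 to 9 genes, 4.75% for 10 to 19, 3.85% for 20 to 29, 3.56% for 30 to 39 and 2.45% for 40 or more. Gained loci were 4.27%, 4.90%, 5.62%, 4.35% and 4.08% of those in all 4 shHNRNPU libraries. On either side of the threshold, distal loci with 28 or 29 genes lost 11 of 276 and gained 17 of 233, and those with 30 or 31 genes lost 9 of 195 and gained 9 of 173. Members 2000 to 2500 bp from a gene end lost 5 of 101 and gained 4 of 80, and loci just inside, at 1500 to 2000 bp, lost 5 of 118 and gained 5 of 101.

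Each hairpin was also taken alone. With shHNRNPU #1, 90 members (7.19%) were lost and 182 (12.4%) gained, against 10.4% and 10.5% of all loci. With shHNRNPU #2, 105 members (8.39%) were lost and 114 (8.78%) gained, against 11.9% and 7.79% of all loci. Both hairpins had a lost share below that of all loci and a gained share slightly above it. All loci include gene ends, so distal loci elsewhere are the closer comparison. Their gained share was 12.7% for shHNRNPU #1 and 9.61% for shHNRNPU #2, slightly above that of members each time. Their lost share was 13.3% and 15.6% in the same order, also above that of members. With equal list sizes, 78 members were lost and 143 gained with shHNRNPU #1, and 70 were lost and 126 gained with shHNRNPU #2. The shares over all loci were not counted at this setting. The shLUC libraries are shared by all these counts, so the counts are not independent of each other.

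Retention was also measured in each shHNRNPU library. A locus can lack a summit because it fell below the caller's limit, and it then counts as not kept. Of the 1251 members in both shLUC libraries, 83.1% and 87.2% had a summit in the shHNRNPU #1 libraries and 82.7% and 83.1% in the shHNRNPU #2 libraries. For the 27039 distal loci elsewhere the values were 74.6%, 77.8%, 74.6% and 71.1%. Members were kept more often in all 4 libraries, by 9.52 ± 1.72 points (SD, n = 4; exact sign-flip permutation test over 16 flips, p = 0.125, the smallest p that 4 libraries allow). They were kept less often than gene ends in gene-dense windows, of which 90.6% ± 0.713 (SD, n = 4) had a summit, by 6.59 ± 1.52 points in all 4 libraries (exact sign-flip permutation test, p = 0.125). Between the 2 shLUC libraries, 68.5% of member summits and 60.9% of distal summits elsewhere had a match (mean of 2 ordered pairs, all summits). Members were thus also found again more often between controls. By this measure, 70.9% of member summits and 55.8% of distal summits elsewhere in a shLUC library had a match in a shHNRNPU library (mean of 8 ordered pairs). A gap was present in both comparisons, and it was wider from shLUC to shHNRNPU than between the controls. This difference was not tested.

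Distal loci with more genes around them were also better scored in the controls, and the gap was recomputed at matched score. Retention by local gene number was 72.4%, 79.2%, 83.4%, 83.7% and 84.7% from the lowest to the highest class, while the median control percentile was 55.7, 57.3, 58.1, 60.1 and 62.3. Within 5 equal bins of the control percentile, an alternative chosen after seeing the data, members were still kept more often, by 7.13 ± 1.55 points (SD, n = 4; exact sign-flip permutation test, p = 0.125). The gap was 11.2 points in the weakest bin, 12.5 in the next, then 8.95 and 5.14, and 0.904 points in the strongest bin, where 97.5% of members and 96.6% of other distal loci were kept. Retention in the strongest bin was near its ceiling, so no large gap was possible there.

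**Figure D3:**
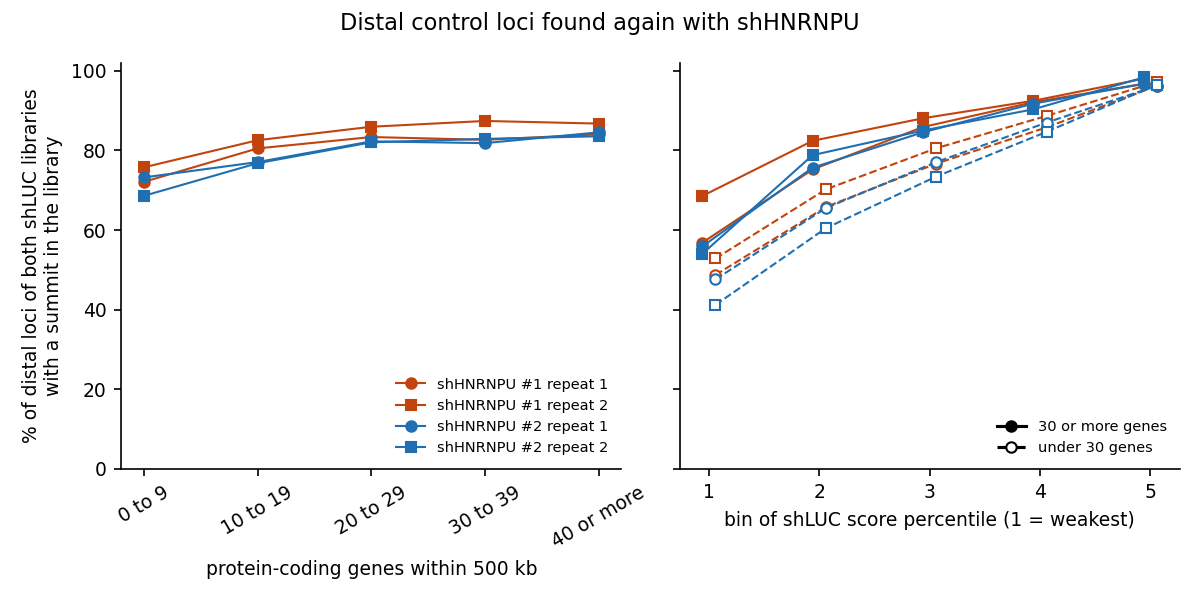
Percentage of distal loci of both shLUC libraries that had a summit in each shHNRNPU library, by local gene number (left) and by 5 bins of the shLUC score percentile (right). Points joined by lines are libraries; filled points on the right are members and open points distal loci with under 30 genes, and the filled points lie higher by 11.2 points on average in the weakest bin and by 0.904 points in the strongest.

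Members were also matched between pairs of libraries. With equal list sizes, 74.4% of the members of a shLUC library had a match in a shHNRNPU library (72.7% to 77.1% over 8 ordered pairs), and 71.8% had one in the other shLUC library (mean of 2 ordered pairs). In the opposite direction, 66.8% of the members of a shHNRNPU library had a match in a shLUC library (64.8% to 69.7%). Between shHNRNPU libraries the mean was 72.6% within a hairpin and 72.2% across hairpins. A match counts in both directions, so the gap between the directions follows from the larger number of members with shHNRNPU and adds nothing to it. Distal summits elsewhere had 61.7% from shLUC to shHNRNPU, 66.8% between shLUC libraries and 62.9% from shHNRNPU to shLUC. The pairs share libraries, and no test was made on them.

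The genome was also divided into 1 Mb bins, and the share of each library's distal summits was taken in each. All 4 shHNRNPU libraries were above both shLUC libraries in 17.1% of the 2125 bins tested and below both in 12.8%. In 80 bins at least 50% of the distal loci were members, and of these 36 (45.0%) were higher with shHNRNPU and 0 were lower. The log2 ratio of mean shares had a median of 0.24 over these bins and 0.03 over all bins, and it was above 0 in 72 of the 80. With equal list sizes 31 of 78 such bins were higher and 0 lower. Neighbouring sites in a bin are not independent, and the bins share the same 6 libraries.

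**Figure D4:**
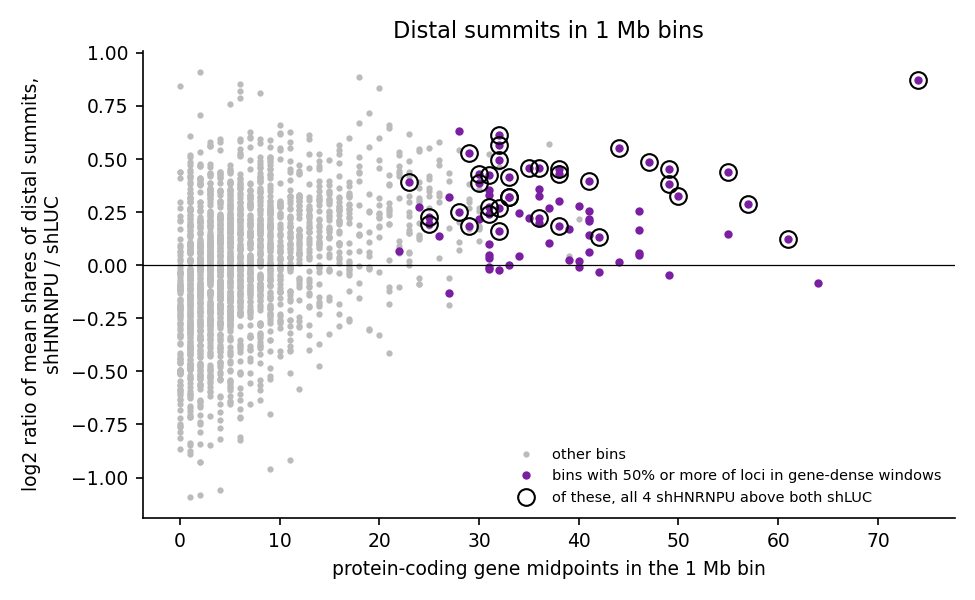
Log2 ratio of the mean share of distal summits, shHNRNPU over shLUC, against the number of protein-coding gene midpoints in each 1 Mb bin. Each point is a bin; purple points are the 80 bins where at least 50% of the distal loci were members, and the 36 circled ones had all 4 shHNRNPU libraries above both shLUC libraries.

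The bins with the most members did not all differ between the groups. Chromosome 19 at 1 to 2 Mb had 40, 35, 28 and 30 distal summits with shHNRNPU and 27 and 26 with shLUC, a log2 ratio of shares of 0.45. Chromosome 19 at 18 to 19 Mb had 41, 36, 35 and 34 against 34 and 30, a log2 ratio of 0.32. Chromosome 11 at 64 to 65 Mb had 30, 36, 31 and 31 against 31 and 29, a log2 ratio of 0.22. As shares of distal summits, these 3 bins were above both controls in all 4 shHNRNPU libraries. Chromosome 1 at 156 to 157 Mb had 40, 40, 40 and 33 against 40 and 42, a log2 ratio of 0.02.

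The 2 remaining bins of this kind, chromosome 19 at 45 to 46 Mb and at 48 to 49 Mb, had log2 ratios of 0.30 and 0.22, with shHNRNPU libraries that overlapped the controls.

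Several gene-dense windows are clusters of one gene family, and members were grouped by families with at least 5 genes within 500 kb. Beside the counts below stand the shares over all members, 3.20% lost and 4.26% gained, and over all loci, 5.68% and 3.59%. Over all members, a library had a summit at 2021 and 2172 loci with shHNRNPU #1, at 1853 and 1790 with shHNRNPU #2, and at 1782 and 1835 with shLUC. The family counts below are not corrected for these totals or for list length. A higher or lower count is therefore not by itself a trait of a family. Zinc finger genes, which mostly encode DNA-binding repressors and lie largely in clusters on chromosome 19, surrounded 341 members. Of these, 207, 222, 206 and 194 were present with shHNRNPU and 186 and 188 with shLUC, so that all 4 shHNRNPU libraries were above both controls in count. In these clusters 1 of the 140 members in both shLUC libraries was lost, and 8 of the 129 in all 4 shHNRNPU libraries were gained.

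Leukocyte receptor genes, which encode inhibitory and activating receptors of immune cells on chromosome 19, surrounded 115 members. A summit was present at 64, 74, 62 and 60 of them with shHNRNPU and at 57 and 55 with shLUC, and 1 of 38 was lost and 6 of 36 were gained. Olfactory receptor clusters went the other way. Of their 117 members, 60, 59, 59 and 49 were present with shHNRNPU and 68 and 63 with shLUC, all 4 below both controls, although none of 43 was lost and 1 of 34 was gained. The HLA genes, which present antigens, surrounded 38 members, present at 20, 20, 17 and 19 with shHNRNPU and at 21 and 25 with shLUC, again all 4 below both controls, with 1 of 14 lost and 2 of 8 gained.

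The protocadherin, keratin, histone and HOX clusters overlapped between the groups. The clustered protocadherins, adhesion molecules of neurons on chromosome 5, surrounded 63 members, present at 41, 39, 31 and 37 with shHNRNPU and at 31 and 32 with shLUC, with none lost of 23 and none gained of 23. Keratin genes surrounded 135 members, of which 2 of 50 were lost and none of 31 gained. Histone genes surrounded 80 members, with 3 of 34 lost and 1 of 29 gained. The HOX genes surrounded 9 members, with none lost of 3 and none gained of 3. The 2748 members near none of these families had 33 of 928 lost and 30 of 763 gained. These 8 families were described without a test, and a locus can count under more than one.

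The lowest percentile of a lost member in the shLUC libraries had a median of 17.9 over all lost members. The named loci were the strongest of them by this percentile. Their shLUC percentiles ran from 29.7 to 65.4, against medians of 50.4 and 51.9 over all members in the shLUC libraries. The 8 lost members named here, chosen by the highest lowest percentile among the 26 with no shHNRNPU summit within 1000 bp, had scores between 4.36 and 10.6 in the shLUC libraries. The first was at chr12:52870398-52870898, outside genes and 21654 bp from KRT78, a keratin gene, with shLUC scores of 10.6 and 7.17 and the nearest shHNRNPU summit 3618 bp away. At chr17:7522966-7523466, 8600 bp from POLR2A, which encodes the largest subunit of RNA polymerase II, the shLUC scores were 7.49 and 6.47, and no shHNRNPU summit lay within 25718 bp. Coordinates of loci are the 250 bp on either side of the centre on GRCh38.

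A further 5 lost loci lay inside the gene nearest to them. The locus in PLEKHA4 (chr19:48860014-48860514) had shLUC scores of 9.16 and 6.44. The locus in ANO8, a member of the anoctamin family of membrane proteins (chr19:17332525-17333025), had 9.03 and 5.49. The locus in NPAS4, an activity-dependent transcription factor of neurons (chr11:66414081-66414581), had 5.87 and 7.76. The loci in FSD1 (chr19:4310652-4311152) and FBF1 (chr17:75914848-75915348), which encodes a protein of the base of cilia, were the weakest, with 6.51 and 4.38 and with 5.75 and 4.36. At CDH16, a cadherin of the kidney, the locus was 2178 bp outside the gene (chr16:66905694-66906194) with 6.05 and 10.6. No shHNRNPU library had a summit at any of these.

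The named gained members had scores in a similar range. The 8, chosen in the same way from 33, had scores between 4.81 and 15.2 in the shHNRNPU libraries. At chr16:2874785-2875285, 8160 bp from FLYWCH2, the scores were 11.0 and 9.11 with shHNRNPU #1 and 7.33 and 15.2 with shHNRNPU #2, and the nearest shLUC summit was 6551 bp away. At the FGF11 promoter window shown above (locus chr17:7440442-7440942), the scores were 9.48, 7.10, 7.84 and 10.8. FGF11 belongs to the fibroblast growth factor homologous factors, which act inside the cell.

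Inside DLL3, an inhibitory ligand of the Notch pathway (chr19:39502765-39503265), the scores were 12.9 and 11.1 with shHNRNPU #1 and 9.99 and 6.41 with shHNRNPU #2. Inside DCST1 (chr1:155044755-155045255) they were 10.1, 6.29, 8.91 and 7.85. Near LILRA4, a receptor gene of plasmacytoid dendritic cells (chr19:54325065-54325565), they were 7.55, 6.28, 5.53 and 9.14. At all 3 the nearest shLUC summit was at least 4147 bp away.

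The last 3 named gained loci were lower in percentile. Near H2BC13, a histone gene on chromosome 6 (chr6:27792155-27792655), the scores were 8.31, 5.99, 4.97 and 6.59, with a shLUC summit 1001 bp away. Near OR52B2, an olfactory receptor gene (chr11:6179376-6179876), they were 5.54, 5.32, 12.6 and 5.70. Inside GRIK5, a subunit of kainate receptors (chr19:42034812-42035312), with ZNF574 as the gene of the nearest end, they were 5.55, 6.12, 4.81 and 5.31. No shLUC library had a summit at any of the 8, and each was present at a modest score in all 4 shHNRNPU libraries.

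The strongest of the 837 members present in all 6 libraries were chosen by the same percentile, so their high scores follow from the choice. The 6 had scores from 44.5 to 97.0. Near LRFN3, a synaptic adhesion molecule (chr19:35931418-35931918), the scores were 84.0, 82.3, 77.4 and 78.1 with shHNRNPU and 63.4 and 62.9 with shLUC, higher in all 4 shHNRNPU libraries. At the NEMP1 window shown above, a gene of a nuclear envelope protein, they were 79.5, 97.0, 76.2 and 75.8 against 80.4 and 57.9. At the window of MALAT1, a nuclear lncRNA of splicing speckles, they were 89.9, 95.7, 57.2 and 74.3 against 58.9 and 51.5.

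The remaining 3 were at MYADM, FBXO46 and SEZ6L2. At the MYADM window the scores were 86.1, 65.2, 55.4 and 58.7 with shHNRNPU and 56.3 and 62.4 with shLUC. Inside FBXO46, an F-box gene (chr19:45717218-45717718), they were 86.9, 81.1, 82.6 and 61.7 against 54.7 and 69.3. Inside SEZ6L2 (chr16:29877394-29877894) they were 58.4, 57.5, 44.5 and 63.4 against 67.8 and 64.9, lower in all 4 shHNRNPU libraries. Scores depend on the depth of a library, which is unknown, so these values describe each library and were not tested between groups.

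**Figure D5:**
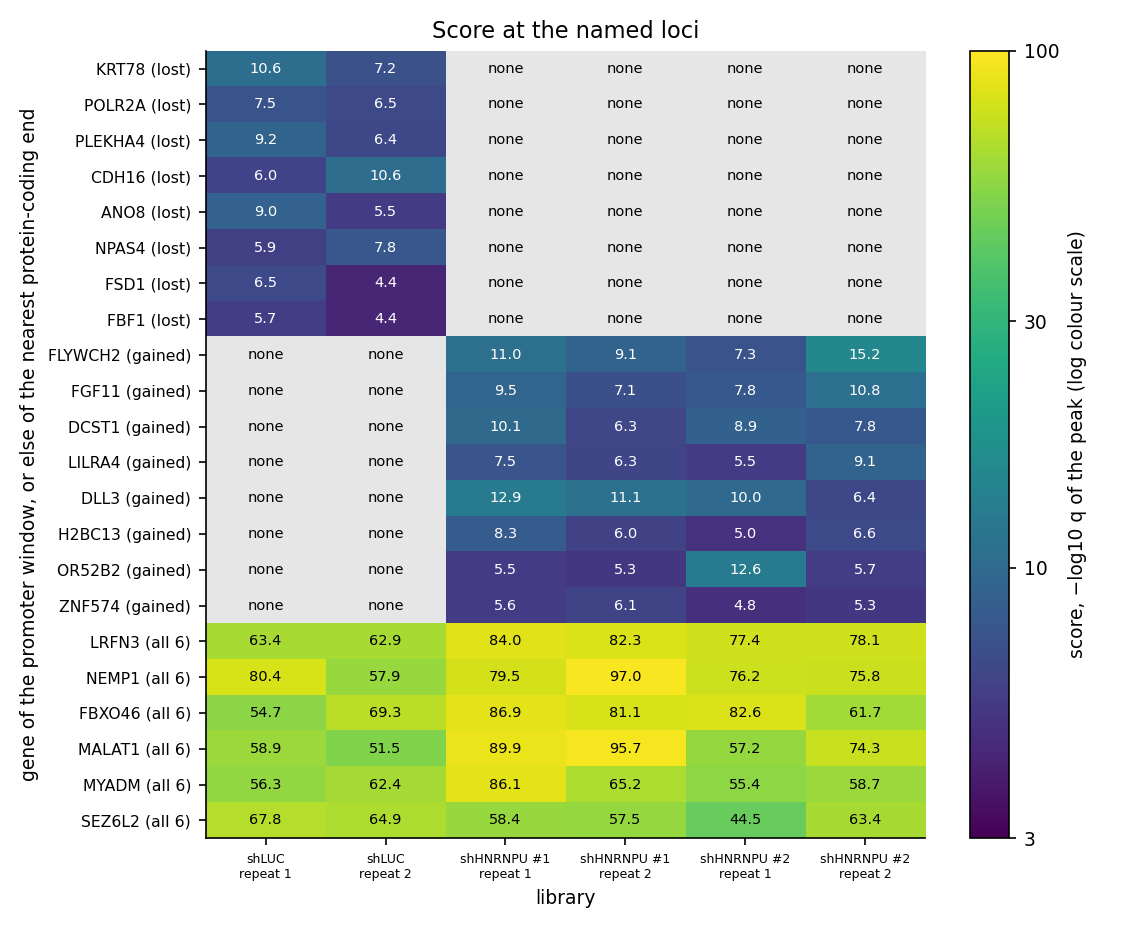
Score, as −log10 of the q-value on a log colour scale, of the named lost, gained and all-6 members in each library, labelled with the gene of the promoter window or else of the nearest end. Grey cells had no summit within 250 bp; lost and gained loci have scores of at most 15.2, and the loci of all 6 libraries have at least 44.5.

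Members near genes of pluripotency were listed. Of 36 such genes, 35 were in the gene table of 20033, and they were nearest to 6 of the 3594 members, 4 at POU5F1, the central transcription factor of pluripotency, and 2 at DNMT3L, a regulator of DNA methylation. The member closest to POU5F1, 2440 bp from its end (chr6:31172872-31173372), had scores of 19.4 and 12.4 with shHNRNPU #2 and 14.3 in shLUC repeat 1. The other 3 libraries had a summit 1060 to 1083 bp away and none within 250 bp. This locus therefore split each comparison, with both repeats of one hairpin and 1 of the controls on the same side.

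Of the other members nearest to POU5F1, the one 26499 bp away was present in all 6 libraries. Its raw scores were 2.31 and 3.16 with shHNRNPU #1, 6.28 and 12.6 with shHNRNPU #2, and 4.61 and 5.08 with shLUC, so the hairpins lay on opposite sides of the controls. These scores were not normalised between libraries, and the difference was not tested. The members 27010 and 27402 bp away were in 1 and 2 libraries, and the 2 at DNMT3L in 1 library each, with scores of 3.32 and 4.43. None of the 6 was lost or gained.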

How the data were processed

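ATAC-seq libraries of H1 cells were grouped by their titles into shHNRNPU #1, shHNRNPU #2 and shLUC, 2 each. The article given with the study describes other libraries, so no method was taken from it. Per the labels, the submitters' processing notes name cutadapt, Bowtie2, SAMtools, MACS2, deepTools and the build hg38, without versions or roles. The authors deposited one summit list per library, with a score that from its values (lowest 1.30 to 1.31) was read as −log10 of the q-value. It was not normalised between libraries. Peaks were called per library. Lists held 52168 to 63519 summits. Reads were not analysed, so depth is unknown and absence of a summit means not called.

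Genes were the 20033 protein-coding entries of the RefSeq table of GRCh38.p14 used here, which gives no strand, so distances are to either end. To make loci, the summit of highest score percentile absorbed those within 250 bp, and so on. A library had a locus if a summit lay within 250 bp of its centre. Lost loci were counted among those in both shLUC libraries and gained loci among those in all 4 shHNRNPU libraries. Group means were compared by exact permutation over 15 assignments, two-sided by doubling the smaller tail, and retention by sign flips over 4 libraries. For 1 Mb bins, a mean of at least 10 distal summits was required. Named loci were the 8 lost and 8 gained with the highest lowest percentile and no summit of a lacking library within 1000 bp, the 6 strongest in all 6 libraries, the 6 bins with most members, and members nearest to listed pluripotency genes. The members, lists and tests were chosen with earlier results of these data known. Scripts were tested on simulated data. Alternatives are given in the closing section. Scripts ran in Python 3.11.15 (scipy 1.17.1, numpy 2.4.6, matplotlib 3.10.9, pandas 2.3.3).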

Additional observations from a re-analysis of the deposited data

Results flagged for a closer look

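In the share of summits that were members, the shHNRNPU #2 repeat 1 library stood apart from the other shHNRNPU libraries, at 3.10% against 3.35% to 3.36%, on the side of the shLUC libraries. Without it the difference between the groups was 0.494 points in place of 0.430. In the retention of shLUC members, the shHNRNPU #1 repeat 2 library stood apart at 87.2% against 82.7% to 83.1% in the others, and it was the library with the longest list, 63519 summits. Whether list length had a part in this was not tested. Of the 6 measures examined over the 4 shHNRNPU libraries, chance would give 0.3 such libraries at a rate of 5% each.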

How the results depend on the processing

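Under the alternatives, 194 values were recomputed, of which 159 stayed within the limits set for no change, 35 moved beyond them and 0 changed direction. For shares, the median percentile and retention, these limits did not bound the size of a change. The difference in the share of all summits was 1.05 points at 20 or more genes, against 0.430. The percentile difference was -0.0391 at 40 or more genes, against -1.64. Both were counted as no change, so the tally does not measure how stable these results were. The difference in the share of distal summits was positive in all of its 10 alternatives with every library, from 0.223 points at 40 or more genes to 1.74 points at 20 or more, and the retention gap lay between 7.13 and 10.4 points.

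Counts of loci depended on the definitions. Lost members numbered 24 with a score of at least 5, 107 and 10 with 20 or 40 genes as the minimum, 70 with matches within 100 bp and 26 with absence within 1000 bp. Gained members numbered 123 and 14 with 20 or 40 genes, and 27 with chromosome 19 left out. Higher bins numbered 21 of 66 with a score of at least 5 and 33 of 81 with bins shifted by 500 kb. Of the 8 named lost and 8 named gained loci, 8 and 5 were still called with matches within 100 bp.

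Leaving out each library in turn gave differences of 0.371 to 0.494 points in the share of summits, 0.622 to 0.815 in the share of distal summits, 0.555 to 1.46 in the share of summits of gene-dense windows and -2.48 to -0.908 in the median percentile, and a retention gap of 8.71 to 15.5 points. Lost members ranged from 56 to 218 and gained members from 66 to 121. Without shLUC repeat 1 the lost and gained counts were 218 and 115, and without shLUC repeat 2 they were 194 and 121, since a call then rests on 1 control library.

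No pairing by repeat number was seen from locus to locus, where deviations of same-numbered libraries over the members correlated at -0.00733, -0.0104 and -0.00377. These correlations cannot exclude a shared batch that acts on list length or on the shares as a whole. With a replicate block the differences are by construction as without it (0.430 points of all summits and 0.716 of distal summits), and the exact permutation p over 9 assignments was 0.222 for both, the smallest it allows, and 0.444 for the share of summits of gene-dense windows and the median percentile. Without read depth, a weaker site cannot be told apart from one that was sampled less.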
